A study of Mus musculus with 29 samples.

Results

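The 8 genes examined here belong to the programme that turns a B cell into a plasma cell and equips it for secretion: Igj (named Jchain in the mm10 tables), Prdm1, Xbp1, Sdc1, Ell2, Ern1, Atf6 and Creb3l2. They were matched by entry name, and all 8 were found among the 24732 entries of the mm9 expression tables and among the 25588 entries of the mm10 tables. The values are TPM, a transcript level per unit of length that sums to 1000000 in each library, so that levels can be compared between genes while the depth in reads is unknown. RNA-seq libraries of pro-B cells, the early B cell progenitors of the bone marrow, were available for 3 wild-type and 2 Pax5(-/-) samples on the C57BL/6 background, both aligned to mm9. A further 3 libraries came from pro-B cells labelled Pax5(+/+) Meox2-cre, pooled from mice at 3 weeks of age and aligned to mm10. Meox2-cre is a ubiquitously active Cre allele, and the study's sample list gives these mice as carrying 1 wild-type Pax5 allele, unlike the labels. The age of the mm9 mice is not stated. All cells were sorted directly from tissue and received no treatment. Both genotypes were sorted as B220+Kit+ cells, but the other surface markers of the gates differed, with Ly6D used for the Pax5-deficient progenitors and the absence of CD2, IgM and IgD for the wild-type pro-B cells. The loss of Pax5 and the sort gate thus cannot be told apart.

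Plasma cells secrete antibody at a very high rate. Prdm1 (Blimp-1) is the transcription factor that ends the B cell programme, and Xbp1 drives expansion of the endoplasmic reticulum. The unfolded protein response, which adjusts the folding capacity of the endoplasmic reticulum, has 3 branches headed by the membrane proteins Ire1 (Ern1), Atf6 and Perk (Eif2ak3). Pax5, the B cell commitment factor, is known to be switched off when plasma cells form. These statements are background and not results of the libraries.

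The genotypes were compared with limma on log2(TPM + 0.5) for 12066 genes, which exceeded 1 TPM on average in either genotype, and a gene was said to rise or fall at an adjusted p-value below 0.05. On this scale, the change of a gene expressed at a low level is understated. Pax5 itself was measured at 342, 386 and 391 TPM in wild-type cells and at 43 and 39.1 TPM in Pax5(-/-) cells. Of the 7 members tested, 2 rose (Igj and Ern1) and 3 fell (Sdc1, Ell2 and Creb3l2), while Xbp1 and Atf6 did not pass the test. Among all genes tested, 15.6% rose and 21.5% fell. In such bulk samples, a larger share of cells with a transcript and more of it per cell cannot be told apart. The 2 Pax5(-/-) values lay above all wild-type values for the same 2 members and below all of them for the same 3, whereas 26.1% and 37.4% of all genes did so in the respective direction. With a change above 3-fold and a mean above 5 TPM also required, Igj and Ern1 remained among the members that rose and Sdc1 among those that fell, against 2.71% and 3.15% of all genes. The 8th member, Prdm1, stayed below the 1 TPM limit in both genotypes and was not tested.

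**Figure D1:**
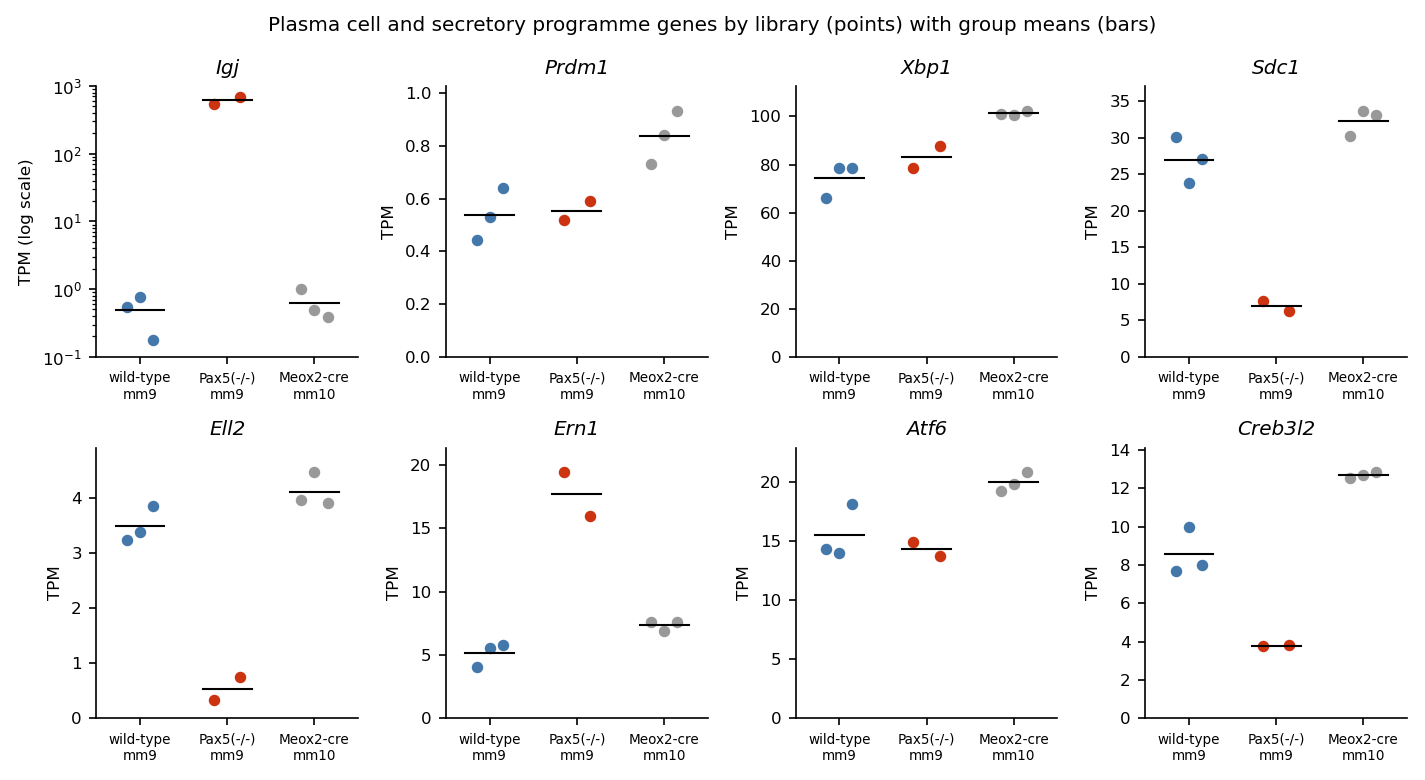
TPM of each member gene (vertical axis, logarithmic for Igj and linear from 0 for the others) in the wild-type (n = 3), Pax5(-/-) (n = 2) and Meox2-cre (n = 3) libraries; points are libraries and bars are group means. Igj is at most at 1.02 TPM in the libraries with Pax5 and at 545 and 695 TPM without it, whereas the Sdc1, Ell2 and Creb3l2 points of Pax5(-/-) cells lie below all others.

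The sequences upstream of the 4 members that changed by more than 3-fold are shown, since they let the genes that moved in opposite directions be set side by side. Each is the window of 250 bases before the RefSeq transcription start site, in the GRCm38.p6 build and on the strand of the gene. Igj lies at chr5:88527898-88528147 (minus strand), Ern1 at chr11:106487797-106488046 (minus strand), Sdc1 at chr12:8771146-8771395 (plus strand) and Ell2 at chr13:75707234-75707483 (plus strand). Capitals mark the matches to any of 8 motifs listed beneath.
Igj: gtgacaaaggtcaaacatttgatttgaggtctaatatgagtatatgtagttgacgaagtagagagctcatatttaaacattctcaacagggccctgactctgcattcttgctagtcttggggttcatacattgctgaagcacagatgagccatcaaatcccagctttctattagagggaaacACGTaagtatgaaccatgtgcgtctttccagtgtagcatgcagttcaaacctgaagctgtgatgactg
Ern1: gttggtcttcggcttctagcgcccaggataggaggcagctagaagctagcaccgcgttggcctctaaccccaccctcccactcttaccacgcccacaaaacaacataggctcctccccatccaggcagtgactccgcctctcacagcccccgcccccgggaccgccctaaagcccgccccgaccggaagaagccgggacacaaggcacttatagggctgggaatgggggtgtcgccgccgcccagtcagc
Sdc1: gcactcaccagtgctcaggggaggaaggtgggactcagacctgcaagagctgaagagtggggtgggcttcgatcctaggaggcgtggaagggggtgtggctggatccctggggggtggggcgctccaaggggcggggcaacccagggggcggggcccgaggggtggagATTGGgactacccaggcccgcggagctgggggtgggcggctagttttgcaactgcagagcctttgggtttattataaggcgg
Ell2: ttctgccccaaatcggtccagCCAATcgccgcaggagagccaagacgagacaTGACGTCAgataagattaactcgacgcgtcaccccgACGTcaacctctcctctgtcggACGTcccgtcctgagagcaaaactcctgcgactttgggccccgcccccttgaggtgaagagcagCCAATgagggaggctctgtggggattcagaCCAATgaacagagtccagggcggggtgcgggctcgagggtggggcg

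Both strands were searched for the endoplasmic reticulum stress element (CCAAT and CCACG with 9 bases between them), its second form (ATTGG and CCACG with 1 base between them), the unfolded protein response element (TGACGTGG), the cAMP response element (TGACGTCA), the STAT element (TTCNNNGAA), the octamer (ATGCAAAT), the CCAAT box (CCAAT) and the ACGT core (ACGT). The CCAAT box is contained in the first of these elements and, on its other strand, in the second, and the ACGT core is contained in the unfolded protein response and cAMP response elements. The Ell2 window held a full cAMP response element from 198 to 191 bases before the start site, together with 3 CCAAT boxes and 3 ACGT cores, 1 of which lies within the element. Of all 32851 promoter windows, 1.55% hold a cAMP response element, 33.8% a CCAAT box and 26.9% an ACGT core. The Igj window held 1 ACGT core, the Sdc1 window 1 CCAAT box and the Ern1 window none of the motifs. The Igj window was poor in G and C, at 42% with 3 CpG, whereas those of Sdc1, Ern1 and Ell2 held 66%, 64.8% and 61.2% with 10, 16 and 19 CpG; the median of all windows was 52.4% with 6 CpG. The endoplasmic reticulum stress elements, the unfolded protein response element, the STAT element and the octamer were found in none of the windows of the 7 members in the RefSeq table, and are present in 0.113%, 0.0304%, 0.563%, 7.02% and 1.6% of all windows. The table holds no entry for Atf6. These matches describe the letters only.

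Igj encodes the joining chain, a small secreted protein that links the monomers of polymeric IgM and IgA. In the mm9 annotation of GENCODE, Igj lies at chr5:88949537-88956916 on the minus strand. It was measured at 0.542, 0.768 and 0.175 TPM in wild-type cells and at 545 and 695 TPM in Pax5(-/-) cells. Both Pax5(-/-) libraries thus stood far above every wild-type library, and Igj moved from the lowest mean of the 8 members to the highest. The log2 fold change was 9.32 (standard error 0.28, 95% confidence interval 8.67 to 9.97, adjusted p = 2.5e-06 by limma), and it ranked first of the 12066 genes. As a ratio of mean TPM, the difference was 1253-fold, a value that rests on wild-type levels below 1 TPM. Neither of its nearest protein-coding neighbours in the mm9 annotation was called changed. Utp3, which lies 26.6 kb away, was at 126, 114 and 128 TPM in wild-type and at 159 and 141 TPM in Pax5(-/-) cells (log2 fold change 0.29, standard error 0.11, adjusted p = 0.071). Enam, at a distance of 14.5 kb, was listed at 0 in the wild-type libraries and at 0.243 and 0.0896 TPM without Pax5, which is too low to be tested.

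The Igj level was set beside markers of cells that could be present in the sorted samples. The plasma cell receptors Tnfrsf17 and Ccr10 remained at or below 1 TPM in all 5 libraries, and all immunoglobulin and T cell receptor entries together held 0.372% of the TPM in either Pax5(-/-) library against 0.405 to 0.505% in the wild-type libraries. The summed level of 8 mature B and plasma cell markers was 155 to 221 TPM in wild-type and 32.8 to 33.3 TPM in Pax5(-/-) cells. Slamf7, at 114 to 131 TPM, was the largest part of the wild-type sum. Of the 8 markers, 4 were tested, of which 3 fell (Ms4a1, Cd22 and Slamf7) and 1 rose, against 21.5% and 15.6% of all genes. The marker that rose was Derl3 (log2 fold change 0.92, adjusted p = 0.0092 by limma). Of 18 markers of plasmacytoid dendritic cells, a cell type that shares features with early lymphoid progenitors, 14 were tested, of which 6 rose (Siglech, Cox6a2, Runx2, Pacsin1, Smim5 and Tlr7, with log2 fold changes of 1.92 to 2.92) and 3 fell (Irf8, Spib and Tcf4), against 15.6% and 21.5% of all genes. Siglech, a defining surface marker of these cells, was at 0.106, 0.57 and 1.12 TPM in wild-type and at 1.79 and 9.06 TPM in Pax5(-/-) cells. The summed level of the 18 markers was 1760 to 3165 TPM in wild-type and 1969 to 2149 TPM in Pax5(-/-) cells. The largest part of this sum in each of these libraries was Dntt, which is also a pro-B marker, at 760.3 to 2133 TPM in wild-type and 1382 to 1712 TPM in Pax5(-/-) cells, so the sum does not show the change of the lower markers. Of the 4 untested markers, Klk1 was listed at 0 in both Pax5(-/-) libraries, whereas the means of Ccr9, Lag3 and Clec10a were higher than in wild-type cells. Their part in the Igj result was not tested. Of 11 myeloid and erythroid markers, 10 were tested, of which 4 fell, and their summed level was 70.5 to 310.2 TPM in wild-type and 74.7 to 100.3 TPM in Pax5(-/-) cells. Of 9 T and NK cell markers, 4 were tested, of which Cd4 and Nkg7 rose (log2 fold changes 2.38 and 2.31) and Klrb1c fell (-1.69). Their summed level was 5.29 to 17.4 TPM in wild-type and 24.3 to 32.5 TPM in Pax5(-/-) cells, and the untested Cd3e and Ncr1 were listed at 0 in both Pax5(-/-) libraries. Among the wild-type libraries, the first stood apart by its lower Dntt level (760.3 against 2133 and 1921 TPM), and without it the log2 fold change of Igj was 9.38.

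**Figure D2:**
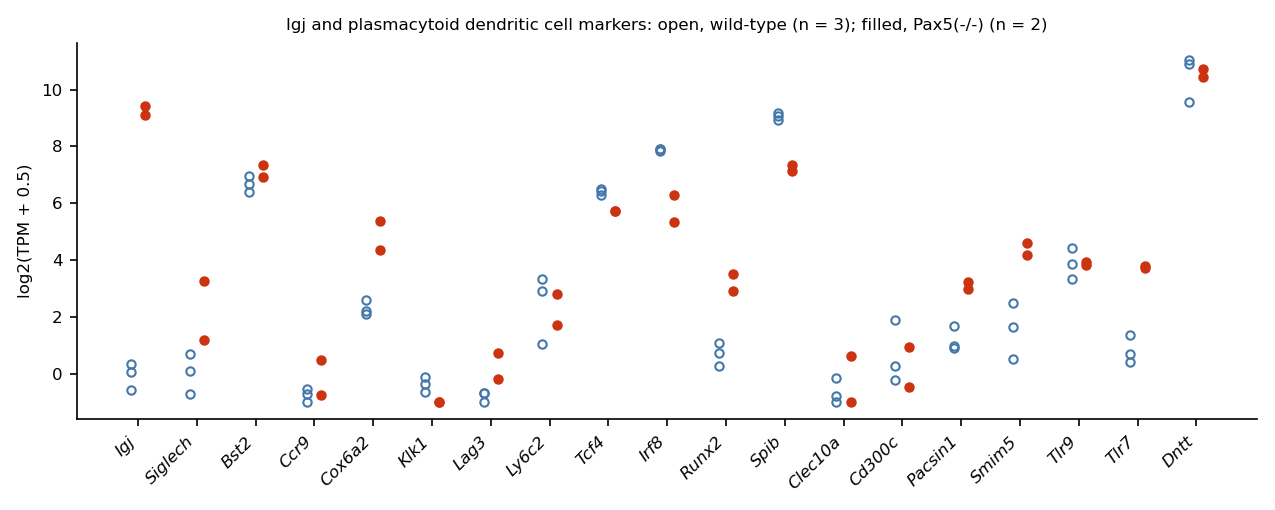
Level on the log2(TPM + 0.5) scale (vertical axis) of Igj and 18 markers of plasmacytoid dendritic cells in the wild-type (open points, n = 3) and Pax5(-/-) (filled points, n = 2) libraries. The separation of Igj is larger than that of any marker, and the markers differ in direction, with Tlr7 and Smim5 higher and Irf8 and Spib lower in Pax5(-/-) cells.

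Prdm1 encodes Blimp-1, the repressor required for plasma cell formation, and lies at chr10:44156983-44248307 on the minus strand in mm9. It was measured at 0.443, 0.531 and 0.642 TPM in wild-type and at 0.518 and 0.59 TPM in Pax5(-/-) cells. All 5 values lay within the same narrow range, so the groups overlapped. Without the filter on low values, its log2 fold change was 0.02 (adjusted p = 0.93 by limma). At values this low, a change of Prdm1 would be hard to detect.

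Xbp1, the transcription factor activated by Ire1, lies at chr11:5420662-5425896 on the plus strand. It was the highest member in wild-type cells, at 66.2, 78.4 and 78.7 TPM, and was at 78.4 and 87.6 TPM in Pax5(-/-) cells. The ranges overlapped, and the log2 fold change was 0.16 (standard error 0.12, 95% confidence interval -0.13 to 0.44, adjusted p = 0.34). The interval corresponds to 0.916 to 1.36 times the wild-type level. Ire1 acts on Xbp1 by splicing its mRNA, which a level per gene does not show.

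Ern1, encoding the sensor Ire1, rose in Pax5(-/-) cells. It lies at chr11:106255964-106349166 on the minus strand and was measured at 4.08, 5.59 and 5.76 TPM in wild-type and at 19.4 and 16 TPM in Pax5(-/-) cells, without overlap. The log2 fold change was 1.70 (standard error 0.21, 95% confidence interval 1.20 to 2.20, adjusted p = 0.00096), a 3.24-fold difference on the log2(TPM + 0.5) scale. With a mean of 17.7 TPM, Ern1 was the third highest member in Pax5(-/-) cells, after the fifth rank in wild-type cells. Its nearest neighbour Icam2, 6.58 kb away, fell (log2 fold change -0.52, standard error 0.10, adjusted p = 0.0074), and Tex2 on the other side had a log2 fold change of 0.41 (adjusted p = 0.068).

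Atf6, the sensor that is cleaved in the Golgi to release a transcription factor, lies at chr1:172634588-172797902 on the minus strand. Its values were 14.3, 14 and 18.2 TPM in wild-type and 14.9 and 13.7 TPM in Pax5(-/-) cells. The groups overlapped at a log2 fold change of -0.10 (standard error 0.17, 95% confidence interval -0.50 to 0.30, adjusted p = 0.67). The direction turned, at 0.011, after rescaling by median ratios and, at 0.015, without wild-type replicate 3.

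Creb3l2, a membrane-bound relative of Atf6 with a function in secretory transport, fell in Pax5(-/-) cells. It lies at chr6:37277255-37392146 on the minus strand and was measured at 7.71, 9.99 and 8 TPM in wild-type and at 3.79 and 3.8 TPM in Pax5(-/-) cells. Both Pax5(-/-) values were below all wild-type values, and the log2 fold change was -1.07 (standard error 0.20, 95% confidence interval -1.54 to -0.60, adjusted p = 0.0056). With only the first or only the second Pax5(-/-) library in the fit, the adjusted p-value was 0.081 or 0.072 at fold changes of -1.07 and -1.07.

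Sdc1 encodes syndecan-1 (CD138), a heparan sulfate proteoglycan used as a surface marker of plasma cells, and lies at chr12:8778129-8800521 on the plus strand. It was measured at 30.1, 23.8 and 27.1 TPM in wild-type and at 7.61 and 6.28 TPM in Pax5(-/-) cells. The groups were clearly separated, and Sdc1 fell by 1.88 on the log2 scale (standard error 0.17, 95% confidence interval -2.28 to -1.48, adjusted p = 0.00021). Of the other syndecan genes, Sdc4 fell from 457, 455 and 441 TPM to 59.6 and 61.6 TPM (log2 fold change -2.88, adjusted p = 2.6e-06). Sdc3, at 0.102, 2.6 and 1.55 TPM in wild-type and 0.328 and 0.775 TPM in Pax5(-/-) cells, varied too much to pass the test (adjusted p = 0.50). Sdc2 was below 0.1 TPM in all 5 libraries. The neighbours of Sdc1 on chromosome 12, Pum2 and Laptm4a, did not pass the test (log2 fold changes -0.34 and 0.22, adjusted p = 0.079 and 0.21).

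Ell2 encodes an elongation factor of RNA polymerase II that promotes the secreted form of immunoglobulin heavy chain mRNA in plasma cells. It lies at chr13:75844932-75909804 on the plus strand and was measured at 3.23, 3.37 and 3.86 TPM in wild-type and at 0.325 and 0.741 TPM in Pax5(-/-) cells. Both Pax5(-/-) values were lower than every wild-type value, at a log2 fold change of -1.97 (standard error 0.28, 95% confidence interval -2.62 to -1.33, adjusted p = 0.0016). The ratio of mean TPM was 6.54-fold, compared with 3.93-fold on the log2(TPM + 0.5) scale. Ell2 stayed below a mean of 5 TPM in both genotypes. Its paralog Ell3 moved the other way, from 3.71, 4.53 and 6.14 TPM to 29.6 and 29.9 TPM (log2 fold change 2.54, standard error 0.22, adjusted p = 0.00018). Glrx, the nearest gene downstream of Ell2 at a distance of 67.5 kb, also fell (log2 fold change -1.36, adjusted p = 0.00077).

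**Figure D3:**
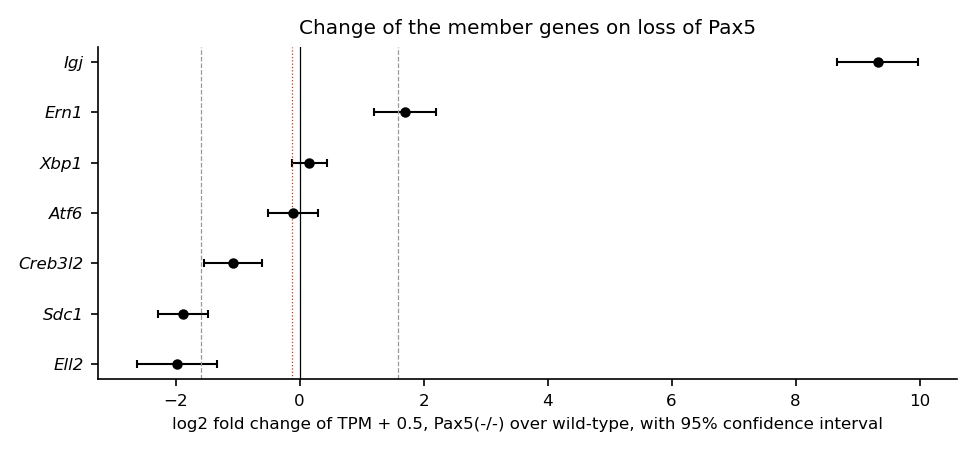
Log2 fold change of TPM + 0.5 in Pax5(-/-) (n = 2) over wild-type (n = 3) pro-B cells (horizontal axis) for the 7 members tested, with the 95% confidence interval of limma; dashed lines mark 3-fold and the dotted line the median of all genes tested (-0.12). The intervals of Igj and Ern1 lie above 0, those of Creb3l2, Sdc1 and Ell2 below 0, and those of Xbp1 and Atf6 include 0.

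The order of the members by mean TPM in wild-type cells was Xbp1, Sdc1, Atf6, Creb3l2, Ern1, Ell2, Prdm1 and Igj, and only Prdm1 and Igj overlapped in their ranges. In Pax5(-/-) cells, the order was Igj, Xbp1, Ern1, Atf6, Sdc1, Creb3l2, Prdm1 and Ell2, and only Prdm1 and Ell2 overlapped. The Meox2-cre libraries, whose TPM come from another build and counting and were therefore not tested against the others, gave the same order as the wild-type libraries. In these libraries, Xbp1 was at 101 ± 1.03, Sdc1 at 32.4 ± 1.87, Atf6 at 20 ± 0.791 and Creb3l2 at 12.7 ± 0.141 TPM (mean ± SD, n = 3 for each). Ern1 was at 7.37 ± 0.418, Ell2 at 4.11 ± 0.31, Prdm1 at 0.837 ± 0.101 and Igj at 0.633 ± 0.339 TPM (mean ± SD, n = 3 for each). The 3 Igj values were 1.02, 0.494 and 0.386 TPM, which again overlapped only with those of Prdm1. The summed level of the 11 myeloid and erythroid markers was 478 to 1280 TPM in the Meox2-cre libraries and 70.5 to 310.2 TPM in the wild-type libraries. For 13 pro-B markers, the sums were 16348 to 18079 TPM and 13796 to 16318 TPM. The part of other cells in the Meox2-cre levels was not tested.

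For the 4 members with a change of more than 3-fold, the genes with the most similar pattern were sought by the root mean square difference of the gene-centred log2(TPM + 0.5) values over the 5 mm9 libraries. The genes nearest to Igj were 6330403A02Rik, 1700011H14Rik and Gpr25, at differences of 0.99, 1.31 and 1.32. The nearest of them, 6330403A02Rik, was at 0.463, 0.644 and 0.317 TPM in wild-type and at 169.9 and 147 TPM in Pax5(-/-) cells, so that even this gene fell well short of the Igj level. The other members had much closer partners. This difference is not scaled by the size of the change, so the distance of Igj follows from its first rank by log2 fold change. Sdc1 was closest to Gpd1l (0.08), C1ql1 (0.08) and Rap1gap2 (0.11), Ell2 to Cyp27a1 (0.10), Apbb2 (0.11) and Irf8 (0.14), and Ern1 to Kcnk3 (0.06), Abcc4 (0.07) and Ccdc38 (0.09). Several of these partners were at low levels, such as C1ql1 at 0.197 to 2.44 TPM and Kcnk3 at 0.233 to 2.49 TPM. The transcription factor Irf8 was at 231, 241 and 240.0 TPM in wild-type and at 40.4 and 78.4 TPM in Pax5(-/-) cells, and like Ell2 was lower in the first of the Pax5(-/-) libraries. Abcc4, a transporter gene, was at 3.01, 4.19 and 3.96 TPM in wild-type and at 15.5 and 13.1 TPM in Pax5(-/-) cells.

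The members were next set beside 151 entries in 9 lists of related genes, of which 141 were tested. Of these, 18 rose and 42 fell, that is 12.8% and 29.8%, against 15.6% and 21.5% of all genes. With a single Pax5(-/-) library in the fit, 5 to 7 rose and 19 to 22 fell. In the list of unfolded protein response sensors and factors, 8 of 13 tested genes fell and 2 rose, with a median log2 fold change of -0.50 compared with -0.12 for all genes. While the Ire1 gene Ern1 rose, the Perk gene Eif2ak3 fell. It was at 76.1, 73.7 and 72.6 TPM in wild-type and at 28.1 and 25.7 TPM in Pax5(-/-) cells (log2 fold change -1.45, standard error 0.11, adjusted p = 8.8e-05). Atf4, the transcription factor translated upon Perk signalling, fell by 0.53 on the log2 scale (standard error 0.09, adjusted p = 0.0045). Ppp1r15a and Ppp1r15b, which encode the regulatory subunits of the phosphatase that reverses Perk signalling, had log2 fold changes of -1.35 and -1.03 (adjusted p = 0.00060 and 0.0018). Ddit3 (Chop), which was added after its values were seen and whose entry carries a mark read here as overlap with another gene, had a log2 fold change of -1.03 (adjusted p = 0.0018). The 2 genes that rose were relatives of Creb3l2. Creb3l1 was at 0.223, 0.219 and 0.539 TPM in wild-type and at 1.89 and 1.77 TPM in Pax5(-/-) cells (log2 fold change 1.52, adjusted p = 0.0074), and Creb3, also marked as overlapping another gene, had a log2 fold change of 0.55 (adjusted p = 0.027).

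**Figure D4:**
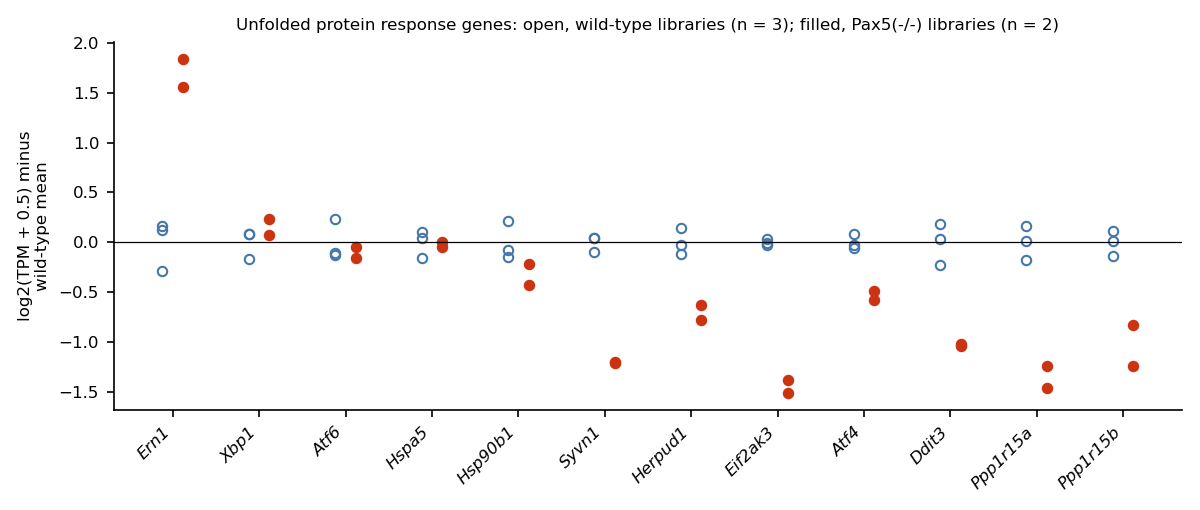
Difference of log2(TPM + 0.5) from the wild-type mean (vertical axis) for 12 genes of the unfolded protein response in the wild-type (open points, n = 3) and Pax5(-/-) (filled points, n = 2) libraries. Ern1 lies above 1.5 in both Pax5(-/-) libraries, Xbp1, Atf6 and Hspa5 lie near 0, and Eif2ak3, Atf4, Ddit3, Ppp1r15a and Ppp1r15b lie below the wild-type points. The genes shown are a selection. From the list of sensors and factors, Creb3 and Creb3l1, which rose, and Mbtps1, Nfe2l2 and Traf2, which fell, are left out. Trib3, Atf6b and Mbtps2, which did neither, are also left out.

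Of the 92 tested genes of the 4 lists of secretory machinery, 10 rose (10.9%) and 16 fell (17.4%), against 15.6% and 21.5% of all genes. Rescaling by median ratios, which moved the median of all genes from -0.12 to -0.0031, turned the sign of the medians of the chaperone and degradation lists to 0.0045 and 0.054. Of 25 chaperones and folding enzymes, 5 fell and 1 rose, with a median log2 fold change of -0.11. Hspa5 (BiP), the main chaperone of the endoplasmic reticulum and a common readout of the unfolded protein response, was at 329.5, 275 and 316 TPM in wild-type and at 306 and 295 TPM in Pax5(-/-) cells (log2 fold change -0.03, standard error 0.11, adjusted p = 0.87). Hsp90b1, added after its values were seen, had a log2 fold change of -0.33 (adjusted p = 0.094). The genes that fell most were the prolyl isomerase gene Fkbp11 (log2 fold change -1.72, adjusted p = 0.0033), the oxidase gene Ero1lb (-1.30, adjusted p = 0.0013) and the BiP cofactor gene Dnajb11 (-0.88, adjusted p = 0.0010). The protein disulfide isomerase gene P4hb rose by 0.47 (adjusted p = 0.0057). Of 15 genes for the degradation of misfolded proteins, 5 fell and 1 rose. The ubiquitin ligase gene Syvn1, whose entry is marked as overlapping another gene, was at 278, 306 and 306 TPM in wild-type and at 129 and 128 TPM in Pax5(-/-) cells (log2 fold change -1.20, adjusted p = 0.00011). Herpud1 and the ubiquitin-conjugating enzyme gene Ube2j1 had log2 fold changes of -0.70 and -0.49 (adjusted p = 0.0028 and 0.011), and Derl3, a plasma cell marker, rose by 0.92 (adjusted p = 0.0092).

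Of 28 genes for translocation and signal peptide processing, 6 rose (21.4%) and 4 fell (14.3%), against 15.6% and 21.5% of all genes. Their median log2 fold change was 0.05. The signal peptidase subunit gene Spcs2 rose by 0.54 (adjusted p = 0.0036), and the translocon-associated genes Ssr4 and Ssr2 rose by 0.46 and 0.36 (adjusted p = 0.011 and 0.029). Sec11c, another signal peptidase subunit gene, had a log2 fold change of -0.61 (adjusted p = 0.0037), and the signal recognition genes Srprb and Srp14 had log2 fold changes of -0.48 and -0.40 (adjusted p = 0.011 and 0.012). Of 24 genes tested for vesicle transport, 2 rose and 2 fell, that is 8.33% in either direction and below the shares of all genes. Sec24d and Kdelr1 rose by 0.99 and 0.35 (adjusted p = 0.0075 and 0.029). Sar1b and Sec13 had log2 fold changes of -0.46 and -0.40 (adjusted p = 0.014 and 0.013). Sec24d, a subunit of the coat of vesicles leaving the endoplasmic reticulum, was at 4.33, 5.86 and 4.92 TPM in wild-type and at 10 and 10.9 TPM in Pax5(-/-) cells.

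**Figure D5:**
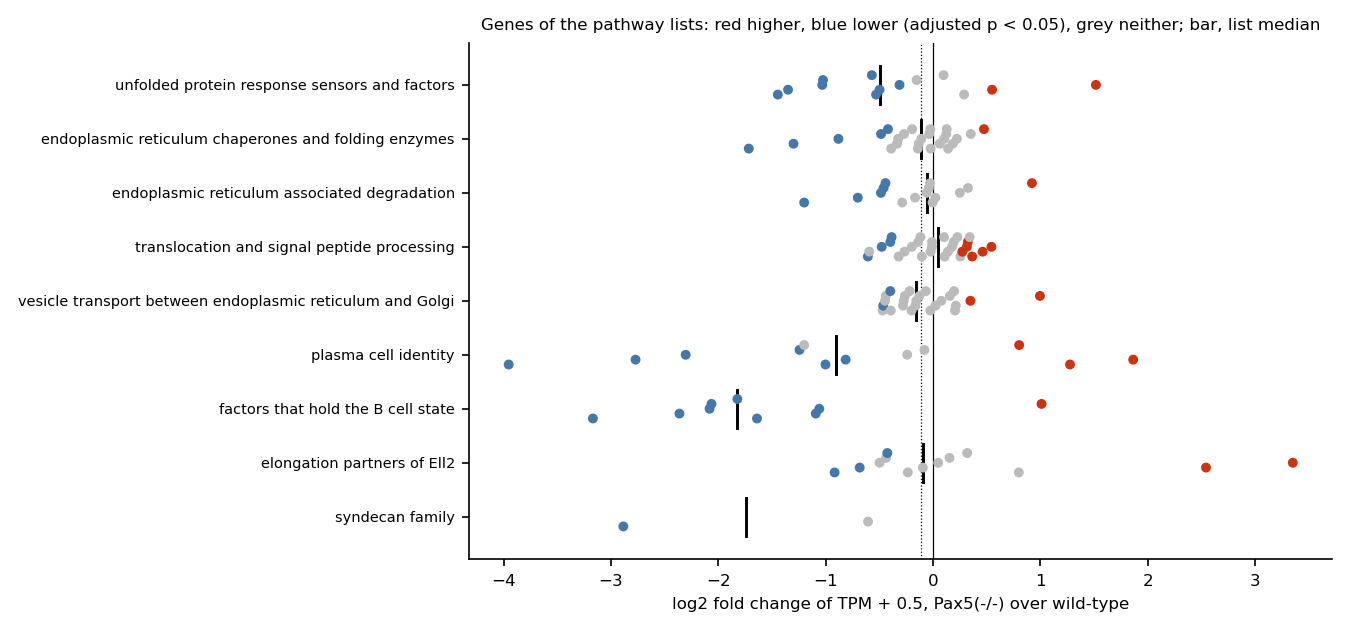
Log2 fold change of TPM + 0.5 in Pax5(-/-) (n = 2) over wild-type (n = 3) pro-B cells (horizontal axis) for the 141 tested entries of 9 lists (vertical axis); red genes rose and blue genes fell at an adjusted p-value below 0.05, grey genes did neither, bars are list medians and the dotted line is the median of all genes. The medians of the secretory machinery lists lie close to the dotted line, and those of the plasma cell identity and B cell state lists lie at -0.91 and -1.82.

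In the list of plasma cell identity genes, 6 of 12 tested genes fell (50%) and 3 rose (25%), against 21.5% and 15.6% of all genes. Irf4, the transcription factor that acts together with Prdm1 in plasma cell formation, was at 104, 102 and 139 TPM in wild-type and at 19.5 and 26.2 TPM in Pax5(-/-) cells (log2 fold change -2.30, standard error 0.18, adjusted p = 0.00011). The surface receptor gene Slamf7 was at 121, 114 and 131 TPM in wild-type and at 7.93 and 6.88 TPM in Pax5(-/-) cells (log2 fold change -3.95, adjusted p = 2.8e-06). Pou2af1, the octamer coactivator gene, was at 1033 ± 45.1 TPM (SD, n = 3) in wild-type and 516 ± 25.5 TPM (SD, n = 2) in Pax5(-/-) cells (adjusted p = 0.00028 by limma). Fam46c had a log2 fold change of -2.77 (adjusted p = 0.035), but its Pax5(-/-) values of 7.01 and 0.283 TPM differed widely. The genes that rose were Bhlha15, Cd93 and Tnfrsf13b. Bhlha15 (Mist1), a transcription factor of secretory cells, was at 2.86, 4.05 and 3.57 TPM in wild-type and at 14.5 and 13.4 TPM in Pax5(-/-) cells (log2 fold change 1.86, standard error 0.21, adjusted p = 0.00056). Cd93, which is also expressed by early B cell progenitors, rose by 1.27, and Tnfrsf13b (Taci) by 0.80 (adjusted p = 8.0e-05 and 0.0078). Of 9 tested factors that hold the B cell state, 8 fell, among them Bach2 (log2 fold change -2.36, adjusted p = 6.3e-05), a repressor of Prdm1 whose entry is marked as overlapping another gene, and Id3 (-2.08, adjusted p = 4.2e-05). Pax5 belongs to this list. Spi1 (PU.1) rose by 1.01 (adjusted p = 0.0026).

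The list of elongation partners of Ell2 held 13 genes, of which 2 rose and 3 fell, against 15.6% and 21.5% of all genes. Of the 2 that rose, Hnrnpll is a splicing regulator and no elongation factor, listed for its part in plasma cell mRNA processing. It was at 1.99, 3.11 and 2.67 TPM in wild-type and at 34.6 and 27.1 TPM in Pax5(-/-) cells (log2 fold change 3.35, standard error 0.23, adjusted p = 5.9e-05). Ell3 was the other gene that rose. The Ell-associated factor gene Eaf2, the scaffold gene Aff1 and the inhibitor gene Hexim1 had log2 fold changes of -0.92, -0.68 and -0.43 (adjusted p = 0.043, 0.0065 and 0.022).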

How the data were processed

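RNA-seq libraries of sorted pro-B cells were used: 3 wild-type, 2 Pax5(-/-) and 3 Meox2-cre libraries of the 29 samples given for the series. The ChIP-seq samples are not analysed here. After removal of ribosomal RNA reads, the authors aligned the mm9 libraries with TopHat 1.4.1a and the mm10 libraries with STAR 2.4.2a, counted reads per gene with featureCounts 1.5.0 and deposited TPM values, which include immunoglobulin and T cell receptor genes. Since TPM retain no depth, intervals that cover counting error could not be given. The labels do not state whether libraries came from separate mice, so p-values measure the spread between these libraries.

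Genotypes were compared between the mm9 libraries by limma (version 3.58.1, R 4.3.3; eBayes with trend after lmFit) on log2(TPM + 0.5), with a filter at a mean of 1 TPM, no covariates and Benjamini-Hochberg adjustment over the 12066 genes tested. An exact permutation test of 3 against 2 libraries cannot go below p = 0.1. In simulated data with 200 of 12066 genes changed, the fit recovered 125, 170 and 194 genes at 2-, 3- and 6-fold, with 4, 9 and 10 false calls. The changed genes were drawn only from those above 5 TPM in wild-type cells. Recovery at lower levels, such as those of Igj and Ell2 in wild-type cells, was therefore not measured. A smaller share of genes was changed in the simulation than was called in the libraries. The Meox2-cre libraries were described without a test. Genes named were all members, the 3 largest changes in each direction per list, Hspa5, Eif2ak3, Atf4, Irf4, Pou2af1, Bach2, Pax5 and Hnrnpll, and the 3 genes nearest in pattern to members changed over 3-fold. The members and lists were chosen with earlier results of these data known, and the promoter motifs and the neighbouring genes were chosen after values were seen. Gene positions are from GENCODE M1 (mm9) and promoter windows from RefSeq (GRCm38.p6). Alternatives were other pseudocounts (0.1 and 1), other filters, eBayes without trend, median-ratio and quantile scaling, a stricter call and leaving out each library. Python 3.11.15, numpy 2.4.6, pandas 2.3.3 and matplotlib 3.10.9 were used.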

Additional observations from a re-analysis of the deposited data

How the results depend on the processing

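Igj and Ern1 rose and Sdc1 and Ell2 fell at an adjusted p-value below 0.05 under each alternative in which they could be tested; Ell2 drops out with the filter at 5 TPM. Their log2 fold changes lay between 8.71 and 10.17, 1.55 and 1.84, -2.01 and -1.75, and -2.58 and -1.56, respectively. Creb3l2 passed in 10 of 12 alternatives, the exceptions being the fits with a single Pax5(-/-) library, where that library is assumed to vary like the wild-type ones. Xbp1 and Atf6 passed in none of 12, with adjusted p-values of 0.097 to 0.79 and 0.51 to 0.97. The direction of Atf6 turned to 0.0072 with quantile normalization and 0.011 with median-ratio rescaling, and lay between -0.17 and 0.015 without each library in turn, with the upper value without wild-type replicate 3. The rescaling moved the median of all genes tested from -0.12 to -0.0031.

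With a change above 3-fold and a mean above 5 TPM also required, 1 member in place of 3 fell, whereas Igj and Ern1 passed. Of the 141 pathway genes tested, 11 in place of 42 fell and 3 in place of 18 rose. Among all genes tested, 3.15% fell and 2.71% rose by this stricter rule. Leaving out a library changed the number of pathway genes that rose to 5 to 16 and of those that fell to 19 to 48; the counts were 7 and 22 without Pax5(-/-) replicate 1, and 5 and 19 without replicate 2. The number of members was 2 in each fit for those that rose, and 2 to 3 for those that fell. Without each library in turn, the mean of Igj in the Meox2-cre libraries lay between 0.44 and 0.757 TPM. No paired analysis was possible because the replicate numbers used here follow accession order and only name the libraries. The unknown depth limits what can be said of Prdm1 and of the wild-type Igj level.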
